A study of Mus musculus with 51 samples.

Results

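The milk protein genes described here are the 5 casein genes Csn1s1, Csn1s2a, Csn1s2b, Csn2 and Csn3, the alpha-lactalbumin gene Lalba, the whey acidic protein gene Wap and Glycam1. They were taken as a list of 8 gene symbols, chosen with earlier results of these data known. Every probe set annotated to a single one of them was used. This gave 14 of 34944 probe sets with 1 symbol and 8 of 18192 genes. Csn1s2a had 5 probe sets, Csn2 and Csn3 had 2 each and the other 5 genes had 1 each. All 14 probe sets passed the filter on dim probe sets.

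RNA from mouse mammary tissue was hybridized to 51 Affymetrix MOE430.2 arrays. In the model the Wap promoter drives Cre, and Cre switches on a conditional knockin allele of Etv6-NTRK3, an oncogenic fusion of a transcription factor and a receptor tyrosine kinase. The tumor and hyperplasia mice thus carry Cre under the promoter of one of the genes described here, and the sources used here do not say whether Cre displaces a copy of Wap itself. Recombined cells are marked by lacZ from a floxed reporter at the Rosa26 locus. The sorted lacZ+ groups were 7 transplanted tumors that went back to 5 mice and had been passaged 1 to 4 times, 8 primary tumors of 6 mice, and hyperplastic mammary epithelial cells of 4 mice. The unsorted groups were 4 transplanted tumors that went back to 2 mice, 22 primary tumors of 14 mice on 23 arrays, and the glands of 5 wild-type mice. The recipients of all transplants were RAG2-/-, a genotype without mature B and T cells. The labels give no age, strain, parity or hormonal state, nor whether the wild-type mice carried lacZ or Cre. Several tumors of 1 mouse and several transplants of 1 tumor share their source. The mouse of origin was a random block in the tests between groups, apart from some of the alternatives given below. Correlations between the milk protein genes used means per mouse.

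Milk proteins are made by the secretory alveolar cells of the mammary gland in late pregnancy and lactation. Prolactin, acting through its receptor, the kinase JAK2 and the transcription factor STAT5, turns on their genes together with glucocorticoids, and ELF5 directs the alveolar fate. The caseins package calcium phosphate into micelles, for which kappa-casein (Csn3) forms the stabilizing coat. Alpha-lactalbumin makes the galactosyltransferase B4GALT1 synthesize lactose, and whey acidic protein is a major whey protein of rodents. Glycam1 encodes a mucin-like protein that is secreted into milk and that lymph node venules also make. In the mouse the 5 caseins form a cluster on chromosome 5, in the order Csn1s1, Csn2, Csn1s2a, Csn1s2b and Csn3. Wap lies on chromosome 11, and Lalba and Glycam1 lie apart from each other on chromosome 15.

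The RefSeq promoter table (GRCm38.p6) held 6 of the 8 genes, Csn1s1, Csn1s2a, Csn2, Lalba, Wap and Glycam1. The 250 bases before the start of 5 of them are shown, because Csn1s1, Csn2 and Glycam1 hold the STAT5 letters and because the results below turn on Wap and Lalba. Capitals mark the letters TTCNNNGAA, the core of a STAT5 site, which reads the same on both strands. They stand 100 bases before the start in Csn1s1 (chr5:87665958-87666207, plus strand), 93 bases before it in Csn2 (chr5:87699426-87699675, minus strand) and 145 bases before it in Glycam1 (chr15:103565082-103565331, minus strand). Wap (chr11:6638650-6638899, minus strand) and Lalba (chr15:98482684-98482933, minus strand) have no such letters in this window.
Csn1s1: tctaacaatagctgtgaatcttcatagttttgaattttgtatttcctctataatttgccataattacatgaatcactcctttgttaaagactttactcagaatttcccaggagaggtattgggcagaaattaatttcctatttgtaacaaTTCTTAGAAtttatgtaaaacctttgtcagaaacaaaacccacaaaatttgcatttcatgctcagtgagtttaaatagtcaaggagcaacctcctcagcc
Csn2: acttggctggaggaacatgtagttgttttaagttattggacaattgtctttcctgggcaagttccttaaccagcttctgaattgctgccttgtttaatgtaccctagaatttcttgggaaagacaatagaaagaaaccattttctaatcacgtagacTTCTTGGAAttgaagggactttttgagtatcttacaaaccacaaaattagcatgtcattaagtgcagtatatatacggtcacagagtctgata
Glycam1: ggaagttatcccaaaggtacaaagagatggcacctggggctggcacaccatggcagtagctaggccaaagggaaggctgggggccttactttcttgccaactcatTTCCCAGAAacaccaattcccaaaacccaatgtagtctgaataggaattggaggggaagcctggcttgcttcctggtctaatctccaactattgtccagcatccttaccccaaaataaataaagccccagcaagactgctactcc
Wap: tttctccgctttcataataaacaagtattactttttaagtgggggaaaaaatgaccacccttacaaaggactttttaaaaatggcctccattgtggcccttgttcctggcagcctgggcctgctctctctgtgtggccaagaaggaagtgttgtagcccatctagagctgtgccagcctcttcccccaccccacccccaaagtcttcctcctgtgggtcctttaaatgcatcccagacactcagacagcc
Lalba: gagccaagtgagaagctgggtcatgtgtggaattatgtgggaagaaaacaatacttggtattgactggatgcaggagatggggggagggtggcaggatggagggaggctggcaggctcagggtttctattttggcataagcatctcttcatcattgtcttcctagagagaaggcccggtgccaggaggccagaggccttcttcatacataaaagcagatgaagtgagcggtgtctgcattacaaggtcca
The STAT5 letters were in 3 of these 6 promoters and in 7.18% of 27025 promoters of the same length. The TATA box letters TATAAA (13% of all promoters), the ETS letters CCGGAA (12.2%), the palindromic nuclear factor 1 motif (0.0407%) and the palindromic glucocorticoid receptor motif (0.0037%), searched on both strands, were in none of the 6. A match describes the sequence and is no evidence of binding.

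Values are deposited probe set intensities, and those below 32 were raised to 32 before log2 was taken, so that 5 is the floor. Each gene is represented by its probe set with the highest mean. Differences are log2 values ± SE from limma, fitted to all 6 groups and adjusted by Benjamini-Hochberg over 27535 probe sets, and called at adjusted p under 0.05. Replicates are labelled as separate tumors or mice, apart from the 2 arrays of tumor CR115, which were averaged, the unsorted transplants, which are recipients of tumors of 2 mice, and 2 of the 7 sorted transplants, which are passages 2 and 4 of tumor 1 of D279. Array medians lay between 42.9 and 57.8. Mean log2 spike-in signal was 8.80 to 12.39 on hyperplasia arrays and at most 10.28 in any other group, and the Actb 3' over 5' log2 ratio, high where RNA is degraded, reached 2.18 in a gland and at most 1.19 in any tumor.

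The first comparison set tumor tissue against normal gland. Caseins, Lalba and Glycam1 were higher in unsorted primary tumors than in wild-type glands, and Wap did not pass the test. The rises ran from 1.56 ± 0.18 for Csn3 to 5.85 ± 0.66 for Lalba, and 7 of 8 genes rose and none fell. Over all 15150 genes tested in this comparison 29.3% rose. The median difference was 3.37 over the 8 genes and 0.10 over all genes. In whole tissue, fewer cells of a type and less RNA per cell cannot be told apart.

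Lalba, the lactose synthase subunit gene, did not overlap between the 2 tissues. Its intensity ran from 1276.4 (tumor L of mouse B459) over a median of 7402.2 to 15293.9 in the 22 tumors, against 122.9, 181.0, 70.5, 77.3 and 160.3 in the 5 glands. Every tumor lay above every gland, and the fold change was 57.6 (12.52 ± 0.98 in tumors, n = 22, against 6.84 ± 0.61 in glands, n = 5, SD; limma adjusted p = 7.02e-10). Csn1s2a also did not overlap. It ran from 2265.9 over 10980.2 to 11948.8 in tumors, against 1759.4, 39.0, 39.0, 1500.2 and 30.0 in glands, a difference of 5.76 ± 0.55 (limma adjusted p = 1.15e-11).

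The glands themselves fell apart in their casein values. Csn2 ran from 2351.9 over 11174.2 to 12307.9 in tumors, against 5248.8, 312.4, 1195.6, 3885.0 and 284.3 in glands of mice G337, G360, G397, G340 and H235. Mice G337 and G340 had high Csn2, Csn1s1 and Csn1s2a together, while the other 3 were low in Csn1s1 and near the floor in Csn1s2a. Csn1s1, like Csn2 a calcium-binding micelle casein, ran from 1531.7 over 11708.2 to 12680.5 in tumors, against 3594.0, 310.2, 356.2, 2428.8 and 315.9 in the same glands. The differences were 3.08 ± 0.36 for Csn2 (limma adjusted p = 2.45e-09) and 3.66 ± 0.42 for Csn1s1 (9.1e-10). For both genes tumor L of mouse B459, the lowest tumor, lay below the brightest gland, as did tumor 6 of C117 for Csn1s1 (3555.9) and the tumor of C231 for Csn2 (5239.2). The leading probe set of kappa-casein (Csn3) ordered the glands otherwise. It ran from 4706.8 over 12965.6 to 13730.8 in tumors, against 4504.9, 6315.4, 4151.4, 2590.9 and 4138.3 in the same glands, and the gland of G340 was its lowest, whereas the dim Csn3 probe set described below was highest in G337 and G340. Its difference was 1.56 ± 0.18 (limma adjusted p = 7.39e-10), with only tumor L of B459 below the brightest gland.

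Csn1s2b, the minor alpha-S2-like casein, was at or near the floor in glands (22.8, 23.3, 29.9, 34.1 and 19, below the floor in 4 of 5). In tumors it ran from 7.4 over 201.4 to 7367.5 and was above the floor in 19 of 22. Its difference was 2.74 ± 0.86 (limma adjusted p = 0.00736). With a floor of 100 the call was lost (1.39, limma adjusted p = 0.121, with a range of 0.00185 to 0.121 over 16 alternatives). Glycam1 ran from 28.7 over 2699.6 to 12634.0 in tumors, against 46.7, 41.2, 42.9, 1225.7 and 63.1 in the glands of G337, G360, G397, G340 and H235. The gland of G340, high in caseins, was also far above the other glands in Glycam1. The difference was 4.06 ± 1.26 (limma adjusted p = 0.00652).

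Wap, whose promoter drives Cre in the model, was dim in nearly all tumors. It ran from 87.9 over 151.4 to 1474.0 in tumors, against 75.1, 82.2, 76.4, 73.8 and 70.7 in glands. Once the arrays of CR115 were averaged the groups did not overlap, although 1 of those 2 arrays, at 74.6, lay within the gland range and the other was at 179.0. The difference of 1.33 ± 0.62 did not pass (limma adjusted p = 0.0728), and it passed without the mouse block (0.0472), with means per mouse (0.0243) and with these groups alone (0.0316), in a range of 0.0243 to 0.234 over 16 alternatives. Wap, Csn1s2a and Lalba were the 3 genes without overlap, as were 6.7% of all genes on the side of the tumors.

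**Figure D1:**
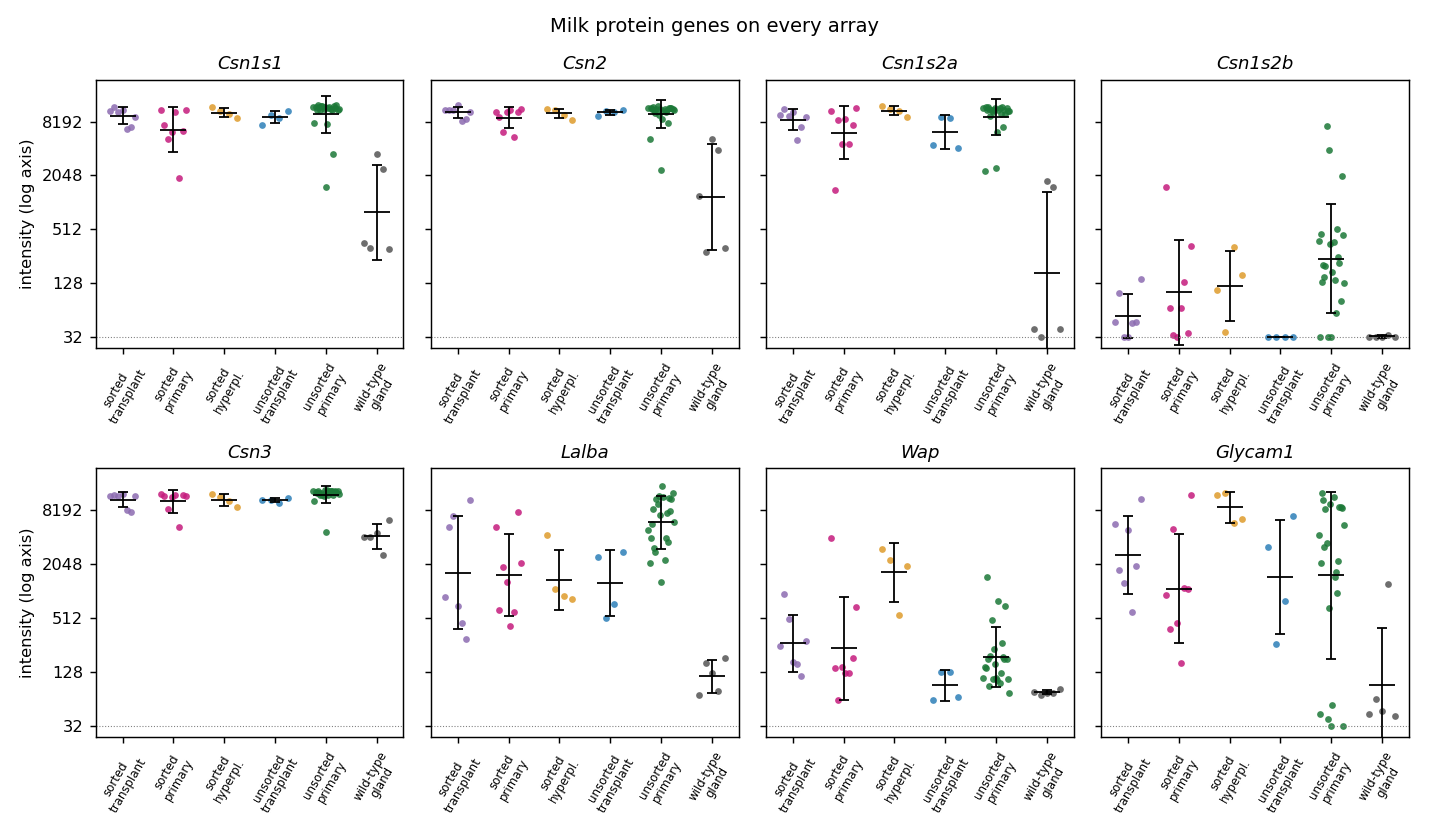
Intensity of the leading probe set of each milk protein gene on all 51 arrays (log axis, with values below the floor of 32 drawn at the dotted line), with points for arrays and bars for mean ± SD on the log2 scale. Csn1s1, Csn1s2a, Csn2 and Csn3 lie near the top in all tumor and hyperplasia groups while Csn1s2b does not, mean Wap is highest in sorted hyperplasia (551.2 to 3016.5), and the 5 glands lie lowest or overlap the lowest group.

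The bright casein probe sets had little room left at the top of the scale. The leading Csn3 probe set reached at least 75% of the highest intensity of the array on 22 of the 23 unsorted primary tumor arrays, Csn1s1 on 19, Csn2 on 18 and Csn1s2a on 15, against 0 of the 5 glands for each of these genes. In sorted samples this was so for Csn3 on 5 of 7 transplant arrays, 6 of 8 primary tumor arrays and 2 of 4 hyperplasia arrays. Differences of these genes among tumor groups, and their distance from glands, may therefore be compressed. How far saturation lowers them was not tested. Csn2 had a second probe set that gave a larger difference than the leading one (4.23 ± 0.49, limma adjusted p = 2.03e-09).

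Dim probe sets of 2 caseins gave other readings than the bright ones. Csn1s2a had bright probe sets A and B, with A the leading one, and dim probe sets A, B and C, which were below the floor in all 5 glands. In tumors dim probe set A ran from 18.6 over 893.0 to 2113.4. With all 5 glands set to the floor, its difference was 4.38 ± 0.77 (limma adjusted p = 6.88e-06). The corresponding differences were 4.01 ± 0.75 for dim probe set B of Csn1s2a (2e-05) and 1.66 ± 0.39 for dim probe set C (0.000389). The dim Csn3 probe set ran from 30.0 over 432.6 to 694.0 in tumors, against 152.1, 42.0, 101.7, 153.3 and 78.2 in glands (1.85 ± 0.54, limma adjusted p = 0.00424). In all, 13 of 14 probe sets rose, against 26.6% of all probe sets tested.

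Bright and dim probe sets parted in sorted hyperplasia, and not only there. Csn1s2a had 9268.0, 10702.0, 11310.6 and 12225.8 there on its leading probe set, with the highest of these above every tumor. On the same 4 arrays dim probe set A had 33.9, 40.2, 84.6 and 42.9, and dim probe set B had 4.2, 3.1, 52.6 and 14.4, mostly close to or below the floor. Dim probe set C, at 40, 70.6, 100.1 and 156.9, was above the floor on all 4. In sorted primary tumors dim probe set A ran from 14.7 over 80.5 to 1298.6. The transcript forms that the dim probe sets match were not tested.

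**Figure D2:**
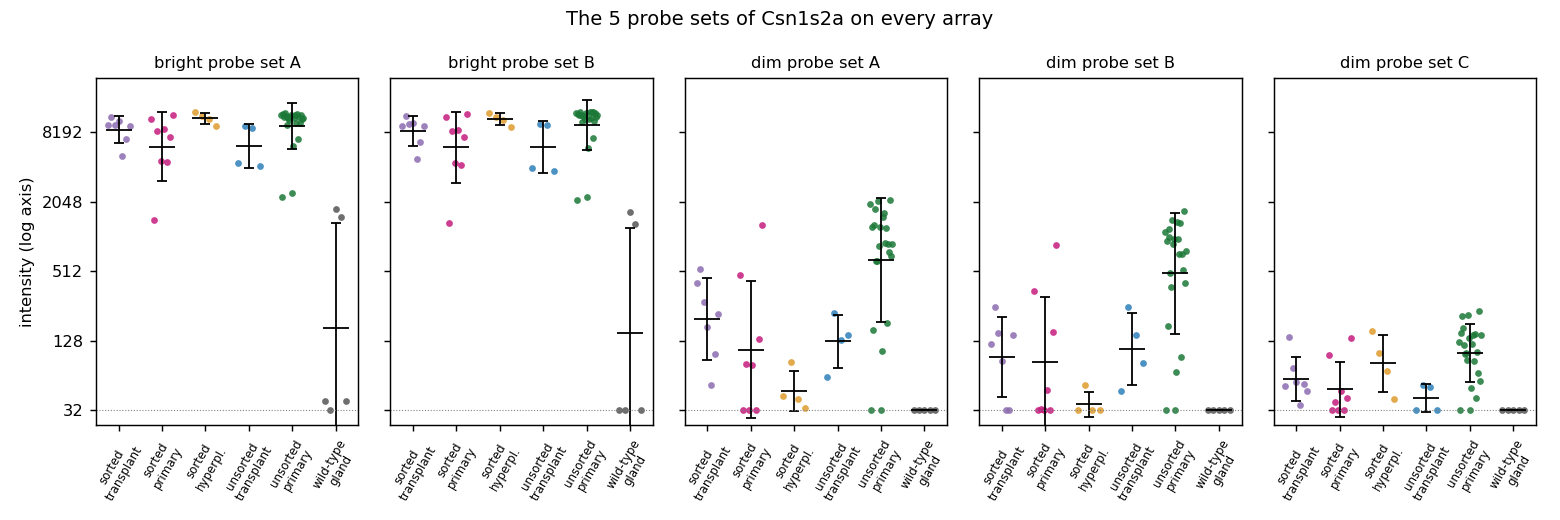
Intensity of the 5 probe sets of Csn1s2a on all 51 arrays (log axis), 1 panel per probe set, with points for arrays, bars for mean ± SD on the log2 scale and a dotted line at the floor of 32. The 2 bright probe sets are near the top in sorted hyperplasia, where dim probe sets A (33.9 to 84.6) and B (3.1 to 52.6) are near the floor.

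Other genes of milk production were counted in the same comparison, in which 29.3% of all genes rose and 21.4% fell. Of 13 lactation regulators tested 5 rose and 3 fell (median 0.02, against 0.10 over all genes). Socs2, a feedback inhibitor of JAK-STAT signalling, had a difference of 1.82 ± 0.36 and Elf5 of 1.41 ± 0.46, while Jak2 had -1.67 ± 0.26. Of 12 fatty acid synthesis genes 10 rose and 1 fell (median 1.39), with Thrsp at 3.35 ± 0.68, Scd2 at 3.11 ± 0.36 and Me1 at 2.64 ± 0.45. Of 8 milk fat globule genes 4 rose and 1 fell (median 1.27), among them Muc1 (3.22 ± 0.42), Fabp3 (2.08 ± 0.82) and the fatty acid carrier Cd36 (-1.80 ± 0.77). Of 6 lactose synthesis genes 3 rose and none fell (median 0.14). B4galt1, the partner of alpha-lactalbumin, rose by 1.36 ± 0.19. Of 12 other secreted milk and alveolar genes 6 rose and 2 fell (median 1.58), led by Pigr, the receptor that carries IgA into milk (3.91 ± 0.78), Ltf, which encodes lactoferrin (2.91 ± 0.59), and the water channel gene Aqp5 (2.48 ± 0.72).

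Cell type markers were set beside the same shares of all genes, 29.3% that rose and 21.4% that fell. The lists did not all depart from these shares. Of 10 luminal epithelial markers 5 rose and none fell, and their summed intensity was 17635 to 37506 in tumors and 10254 to 28430 in glands. Of 10 fibroblast and matrix markers 9 fell and 1 rose (sums of 703 to 27517 in tumors, against 19265 to 30671 in glands), and all 8 endothelial markers fell (381 to 1510 in tumors, against 2366 to 4788 in glands). Of 6 adipocyte markers tested 2 fell and 1 rose, of 10 basal markers 5 fell, of 7 T and B cell markers 4 fell, and of 10 macrophage markers 2 fell and 1 rose. Pparg, Cd4 and Cd28 were at the floor in all 22 tumors, and Cd4 also in all 5 glands. Their part in the milk gene rises was not tested.

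The second comparison followed sorted lacZ+ cells at the tumor and hyperplasia stages. Wap fell in tumor cells and none of the other 7 genes passed, so that 1 of 8 fell and none rose, against 2.38% of all genes that fell. Wap ran from 61.6 over 142.9 to 3965.2 in the 8 tumors, against 1961.5, 551.2, 2289.2 and 3016.5 in hyperplasia. Of the 8 tumors 6 lay below every hyperplasia sample. Tumor 1 of mouse E344, at 673.2, and tumor 4 of mouse F433, at 3965.2, overlapped them. Wap was 8.45-fold lower in tumors, with a difference of -3.08 ± 0.77 (7.88 ± 1.91, n = 8, against 10.69 ± 1.09, n = 4, SD; limma adjusted p = 0.0147).

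The Wap call was lost under 3 of 16 alternatives. It did not pass without hyperplasia replicate 1 (-2.99, limma adjusted p = 0.0844), without replicates 1 and 2 together, which had the brightest spike-in signal (-3.74, 0.0695), and in a fit of these 2 groups alone (-3.05, 0.636). Over 16 alternatives the difference ran from -3.74 to -2.79 and the adjusted p from 0.000282 to 0.636. The lowest p came without tumor 4 of F433 (-3.53), which was left out after seeing the data.

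Csn1s1, Csn1s2a, Csn2 and Csn3 were bright in both sorted groups, and Csn1s2b was dim in both, with medians of 68.0 in tumors and 133.3 in hyperplasia. Csn1s1 ran from 1902.0 over 6904.0 to 11117.6 in tumors, against 9003.2, 9895.9, 10623.2 and 11822.4 in hyperplasia (SD 0.84 and 0.17 on the log2 scale, a difference in spread that was not tested). Csn1s2a ran from 1417.5 over 7959.1 to 11504.1 in tumors, against the values given above for hyperplasia (SD 0.99 and 0.17). The groups overlapped for both, and neither difference passed (-0.72 ± 0.51, limma adjusted p = 0.516, and -0.89 ± 0.68, 0.551). Csn2 (-0.20 ± 0.45, 0.879), Csn3 (-0.10 ± 0.22, 0.871), Csn1s2b (-0.23 ± 1.06, 0.952) and Lalba (-0.09 ± 0.81, 0.983) also did not pass. Their 95% intervals ran from -1.10 to 0.70, -0.53 to 0.33, -2.37 to 1.90 and -1.71 to 1.54. Glycam1 ran from 161.2 over 1001.8 to 12011.0 in tumors, against 6592.7, 5957.1, 12631.6 and 12044.6 in hyperplasia. Only tumor 1 of E344 reached the hyperplasia range, and the difference of -2.73 ± 1.55 did not pass (limma adjusted p = 0.382).

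Regulators, milk fat globule, lactose synthesis and other secreted genes held no limma call in this comparison, in which 3.54% of all genes were called. At an unadjusted p under 0.05 there were 2 of 13, 2 of 8, 2 of 6 and 2 of 12 genes, against 17.5% of all genes. Among fatty acid synthesis genes 1 of 12 rose, the citrate carrier gene Slc25a1 (0.85 ± 0.17), and 1 fell, Lpl (-2.91 ± 0.63). No luminal marker of 10 passed. The summed markers of other cell types had lower minima in tumor cells, with ranges of 1952 to 29587 against 15403 to 23514 in hyperplasia for fibroblasts, 260 to 997 against 552 to 1533 for endothelium, 435 to 2258 against 1212 to 19104 for T and B cells, 285 to 628 against 767 to 2548 for adipocytes, and 3872 to 32616 against 18157 to 41405 for macrophages. Of their markers 3 of 10, 3 of 8, 5 of 7, 1 of 6 and 1 of 10 fell, against 2.38% of all genes. Basal markers did not follow this, as 1 of 10 rose and 1 fell. Their sums ran from 3190 over 9429 to 17128 in tumor cells, against 4351 over 5385 to 6250 in hyperplasia. Whether the markers bear on Wap was not tested.

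**Figure D3:**
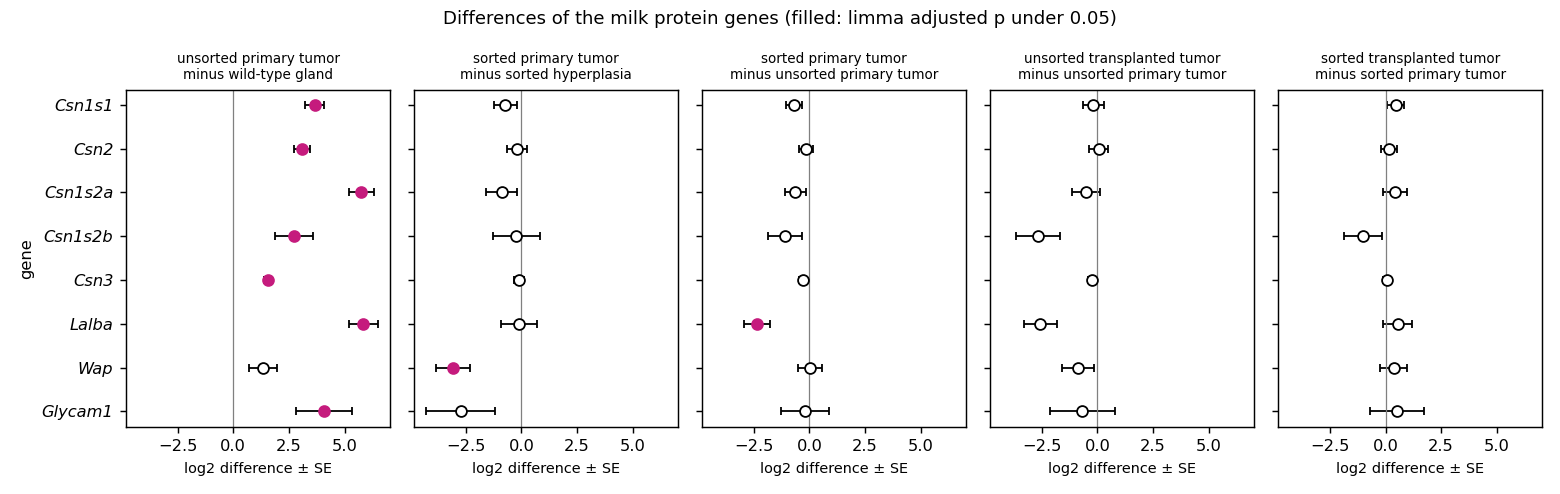
Log2 difference ± SE of the 8 milk protein genes in 5 comparisons, from limma, with filled points for adjusted p under 0.05. Against glands 7 genes are filled, against hyperplasia only Wap (-3.08) and in sorted against unsorted primary tumors only Lalba (-2.35), while both transplant comparisons have none.

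Sorted tumor cells were also set against whole tumors, a comparison that holds the effects of sorting together with any difference between the mice. Lalba was lower in sorted cells and no other leading probe set passed, 1 of 8 genes, against 15.6% of all genes that were lower, a larger share than among the 8. It ran from 413.8 over 1592.3 to 7854.0 in sorted tumors, against 1276.4 over 7402.2 to 15293.9 in unsorted tumors. The ranges overlapped, and the difference was -2.35 ± 0.57, or 5.10-fold lower (10.61 ± 1.52, n = 8, against 12.52 ± 0.98, n = 22, SD; limma adjusted p = 0.00192). The call held under 12 alternatives (limma adjusted p from 0.00085 to 0.0135).

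The dim casein probe sets were lower in sorted cells too, whereas the bright ones of the same genes did not pass. The differences were -2.75 ± 0.67 for dim probe set A of Csn1s2a (limma adjusted p = 0.00199), -2.75 ± 0.65 for dim probe set B (0.00162) and -1.16 ± 0.34 for dim probe set C (0.00891). The 2 bright probe sets of Csn1s2a had -0.63 ± 0.48 (0.365) and -0.68 ± 0.49 (0.331). The dim Csn3 probe set had -1.33 ± 0.47 (0.034), and the bright one -0.30 ± 0.15 (0.149). In all, 5 of 14 probe sets were lower, against 14.4% of all probe sets. Averaged over all its probe sets Csn1s2a passed (-1.59, limma adjusted p = 0.00696), as did Csn3 (-0.81, 0.0321). Without tumor L of B459, left out after seeing the data, the leading Csn3 probe set passed (-0.36, 0.021).

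Wap did not differ beyond the error between sorted and unsorted primary tumors (0.04 ± 0.54, 95% interval -1.05 to 1.13), and its difference was -0.41 without tumor 4 of F433. Glycam1 (-0.20 ± 1.09) had a wider interval, from -2.40 to 2.00. Elf5 (-1.41 ± 0.40), Socs2 (-1.12 ± 0.31) and Nfib (-1.05 ± 0.28) were among 4 of 13 regulators that were lower in sorted cells, and none was higher. Of the lactose synthesis genes 3 of 6 were higher and 2 lower, with the hexokinase gene Hk2 at 1.27 ± 0.33, the glucose transporter gene Slc2a1 at 0.99 ± 0.28 and Ugp2 at -0.83 ± 0.19. Of 10 luminal markers 5 were lower in sorted cells (sums of 10792 to 30003, against 17635 to 37506 in unsorted tumors), and of 10 macrophage markers 6 were higher (3872 to 32616 against 2430 to 13124). Of 10 fibroblast and matrix markers 2 were higher (1952 to 29587 against 703 to 27517). Over all genes 9.53% were higher and 15.6% lower. The part of these markers in the Lalba difference was not tested.

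Transplantation was compared with primary growth in both kinds of sample, and no milk protein gene passed in either. Among sorted cells limma called none of the 8 genes, and none had an unadjusted p under 0.05, while 0% of all genes were called and 4.01% had an unadjusted p under 0.05. Differences ran from -1.02 ± 0.84 for Csn1s2b to 0.54 ± 0.64 for Lalba. Wap ran from 113.5 over 246.2 to 954.9 in transplants, against 61.6 over 142.9 to 3965.2 in primary tumors (0.37 ± 0.61, 95% interval -0.85 to 1.59). Lalba in sorted transplants ran from 295.8 over 881.1 to 10580.8, the widest spread of any group for this gene (SD 2.10, n = 7). The 3 high transplants, of mice E344, F433 and D396, had 5307.9, 7020.8 and 10580.8, and the other 4, of D279 and F402, had 881.1 or less.

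Among unsorted samples the 4 transplants came from tumors of 2 mice. Limma called none of the 8 genes at adjusted p under 0.05, against 0.997% of all genes. At an unadjusted p under 0.05, Lalba and Csn1s2b were lower, against 10.3% of all genes in either direction. Lalba had 2773.8 and 2471.1 in the CR90 transplants and 511.2 and 725.9 in the CR115 transplants, against 1276.4 over 7402.2 to 15293.9 in primary tumors (-2.56 ± 0.75, limma adjusted p = 0.0846). It passed without the mouse block (-2.22, 0.037) and with these groups alone (-2.40, 0.0298), in a range of 0.0298 to 0.314 over 15 alternatives. Csn1s2b was below the floor in all 4 transplants (14.7, 12.6, 22.6 and 15.5) and above it in 19 of 22 primary tumors. With values below 32 set to the floor, the difference of Csn1s2b was -2.68 ± 0.99 and did not pass (limma adjusted p = 0.217, and 0.0349 without the mouse block). Over 15 alternatives it ran from -2.94 to -1.24, with limma adjusted p from 0.0349 to 0.669. The other milk protein genes had differences between -0.87 ± 0.72 (Wap) and 0.05 ± 0.42 (Csn2).

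A few tumors were measured both before and after transplantation. The transplants of the CR115 tumor had 511.2 and 725.9 of Lalba, against 11274.6 and 6090.4 on the 2 arrays of the primary tumor. Its Glycam1 was 258.5 and 795.6 in the transplants, against 8974.4 and 5623.3 in the primary tumor. Its Wap was 127.6 and 128.7 in the transplants, against 179.0 and 74.6 in the primary tumor, and thus within the range of that tumor. Tumor 4 of F433, sorted, had 497.3 of Wap after 1 passage, against 3965.2 as a primary tumor, and 32 of Csn1s2b, against 1509.7. Its Lalba was higher after transplantation, at 7020.8 against 5374.8 in the primary tumor. Tumor 1 of D279 had 295.8 of Lalba at passage 2 and 695.2 at passage 4 in sorted cells, against 8554.5 in the unsorted primary tumor, so that passage and sorting differ at once. These are single tumors with no test.

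The transplant effect of sorted samples minus that of unsorted samples was called for none of the 8 genes by limma, against 0.125% of all genes. Lalba had an unadjusted p under 0.05 (3.10 ± 1.00, limma adjusted p = 0.238), 1 of 8 genes, against 7.83% of all genes. Sorted and unsorted transplants were also set against each other. None of the 8 genes was called and none had an unadjusted limma p under 0.05, while 17.5% of all genes were called and 31.2% had an unadjusted p under 0.05. Wap had the largest difference among the 8, 1.28 ± 0.83 (limma adjusted p = 0.305), with 113.5 to 954.9 in sorted transplants and 61.2 to 128.7 in unsorted ones. Among the other lists, 4 of 12 secreted milk and alveolar genes were higher in sorted transplants, led by Lao1 (3.63 ± 1.23), Pigr (2.91 ± 1.04) and Car6 (2.12 ± 0.69). Of 10 luminal markers 2 were lower, and of 10 macrophage markers 2 were higher. Over all genes 5.85% were higher and 11.6% lower.

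Tumors of the same mouse differed widely in some mice and little in others. Over 6 mice with 14 unsorted primary tumors, the SD of Wap within a mouse was 1.05, and the SD of the 14 mouse means was 1.00. The pairs were 0.91 and 0.85 for Lalba, 1.86 and 1.74 for Csn1s2b, 0.89 and 0.44 for Csn1s1 and 2.47 and 3.07 for Glycam1. The SD of mouse means is an unlike measure, because it also holds spread within mice. The log2 range within a mouse ran from 0.02 (D14) to 3.74 (B459) for Wap. For Glycam1 it ran from 0.77 (D14) to 8.63 (B459). For Csn1s1 it ran from 0.01 (D254) to 2.86 (B459). The SDs within a mouse thus rest largely on B459 for Wap, Glycam1 and Csn1s1. On the leading probe sets, mouse B459 held the widest gap within a mouse for Csn1s1, Csn1s2a, Csn2, Csn3, Lalba, Wap and Glycam1. Its tumor L had 110.0 of Wap, 1276.4 of Lalba, 2351.9 of Csn2 and 28.7 of Glycam1. Its tumor U had 1474.0, 5770.6, 11169.7 and 12634.0, the highest value of any unsorted primary tumor for Wap and Glycam1. For Csn1s2b the widest gap was in mouse C117, whose tumors 1 and 5 had 3935.6 and 7367.5 and whose tumors 3 and 6 had 199.5 and 252.3.

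Glycam1 and Csn1s2b split the unsorted primary tumors. For Glycam1, 5 of 22 tumors had 54.6 or less, within the range of the 4 low glands or below it, and the other 17 had 658.9 or more. The low tumors were both tumors of D14, tumor L of B459 and the tumors of E93 and C231. Those of D14 were the brightest of all in Lalba (15293.9 and 12915.5), so that low Glycam1 did not go with low Lalba there. For Csn1s2b, 3 of 22 tumors had 2019.1 or more, and the others 519.5 or less. No milk protein gene other than Glycam1 had a gap of comparable width: 3.59 on the log2 scale, against 1.96 for Csn1s2b and at most 1.34 for the others.

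**Figure D4:**
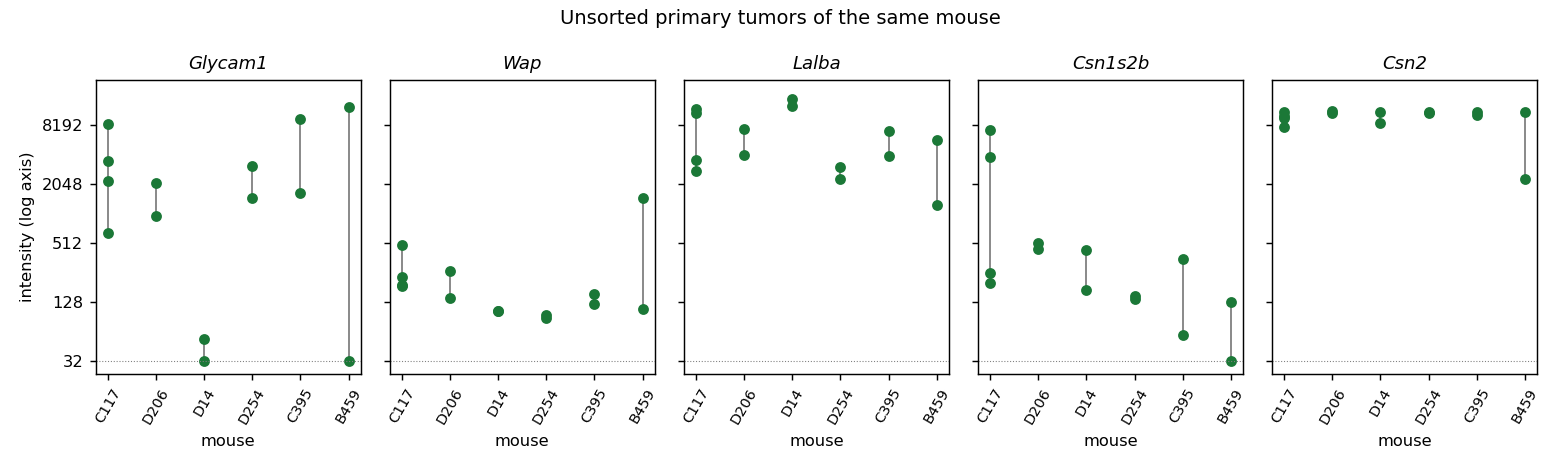
Intensity of 5 milk protein genes (log axis) in the 14 unsorted primary tumors of the 6 mice with more than 1, with a point for each tumor, a line joining tumors of a mouse and a dotted line at the floor of 32. The tumors of B459 are farthest apart in Glycam1 (28.7 and 12634.0), Wap (110.0 and 1474.0) and Csn2 (2351.9 and 11169.7).

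Across the 14 mice with unsorted primary tumors, 4 pairs of casein genes were correlated and no pair with Wap was. Of 21 pairs among 7 genes, with Glycam1 left out because of its split, 4 had an adjusted permutation p under 0.05 by Pearson's r and 1 of these also by Spearman's rho. That pair was Csn1s1 and Csn2 (r = 0.89 and rho = 0.86, permutation p = 3e-05 and 0.00016, adjusted 0.00063 and 0.00336), and r remained 0.89 without the 2 mice farthest from the median. Csn1s1 and Csn3 had r = 0.92 (adjusted permutation p = 0.015) but rho = 0.32 (0.453), and r fell to 0.20 without mice B459 and C231, so that relation rests on those mice. The same held for Csn2 and Csn3 (r = 0.88, and 0.13 without them). Csn1s2a and Csn2 had r = 0.91 and rho = 0.65, and r = 0.69 without these mice. Wap had r between -0.31 and 0.14 with the other 6 genes, and none of these pairs passed. The casein probe sets share the limit at the top of the scale given above.

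Genes outside the list with the most similar pattern were named by Pearson's r over the 22 unsorted primary tumors, as a description. For Wap these were Ltb4r1, a leukotriene receptor gene (r = 0.88), Npr2 (0.84), Adgrb2 (0.83), Camkv (0.82) and Vwa2 (0.80). Without tumor U of B459, the brightest in Wap, r was 0.83, 0.75, 0.73, 0.75 and 0.69. For Csn2 they were Thrsp, a regulator of fatty acid synthesis (0.84), Nod1 (0.81), Nudt22 (0.79), Btbd19 (0.78) and Muc15 (0.78), which were 0.78, 0.57, 0.60, 0.50 and 0.65 without tumor L of B459. For Lalba they were Atp2c2, a calcium and manganese pump of the Golgi (0.81), Nucb2 (0.81), Abhd5 (0.80), Faap24 (0.76) and Zdhhc3 (0.76), between 0.71 and 0.82 without tumor L of B459. Over all 50 replicates, where differences between groups enter, the leading genes were Lao1 (0.75), Fabp3 (0.73), Rassf2 (0.68), Lpin1 (0.62) and Cel (0.61) for Wap. For Csn2 they were Birc5 (0.83), Cdca8 (0.79), Cdca3 (0.78), Fkbp5 (0.78) and Cenpa (0.76), 4 of them genes of mitosis. For Lalba they were Atp2c2 (0.86), Folr1 (0.85), Abhd5 (0.84), Ceacam10 (0.83) and Pcyt2 (0.82).

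The neighbours of the milk protein genes on the chromosome were counted too. Of 15 genes within the casein cluster or among the 6 nearest on each side, 11 had a probe set and 6 were tested. Against glands, where 29.3% of all genes rose and 21.4% fell, 1 of the 6 rose, Prr27 (0.93 ± 0.18), which lies within the cluster, and 1 fell, Amtn (-0.85 ± 0.07). Odam, also within the cluster, had 0.10 ± 0.24. Next to Wap 4 of 11 genes tested rose and none fell, led by Tns3 (1.40 ± 0.33), H2az2 (1.17 ± 0.19) and Tbrg4 (1.08 ± 0.16). Next to Lalba 2 of 4 rose and 1 fell, and next to Glycam1 none of 4 passed (limma adjusted p of 0.683 or more). Nothing is read from these small counts.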

How the data were processed

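Total RNA, extracted with Trizol and cleaned on columns per the labels' protocols, was hybridized to 51 Affymetrix MOE430.2 arrays. The deposited tables hold a linear intensity for each probe set and array. The authors' summary method and scaling are not stated in labels or headers.

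Of 45101 probe sets, 64 are controls, 932 had several gene symbols and 9160 no listed gene. A further 1 was left out for values far above all others, the highest of which was 21364. The platform annotation gave 34944 probe sets 1 symbol, and 34740 of these were matched through Entrez identifiers to RefSeq (GRCm38.p6). Intensities below 32 (32.8% of values) were set to 32 before log2. Probe sets above the 40th percentile of their array on at least 4 arrays were tested. These 27535 probe sets covered 15150 of 18192 genes by their brightest probe set.

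Groups came from sample titles, and the 2 arrays of tumor CR115 were averaged. Limma 3.58.1 (R 4.3.3) fitted the 6 groups together (lmFit, duplicateCorrelation blocked by the mouse each tumor came from, correlation 0.363, and eBayes) on 50 replicates for 7 comparisons, with Benjamini-Hochberg adjustment over all probe sets. Because of the block, fitted differences need not equal differences of the printed means. The fit was tested on simulated data. Correlations over mice were tested with 100000 permutations. The remaining work used Python 3.11.15 with pandas 2.3.3, numpy 2.4.6 and matplotlib 3.10.9.

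The 8 genes, the other lists, the tests and the alternatives were chosen with earlier results of these data known. From each other list up to 3 called genes with the largest difference were named, from pattern likeness the 5 highest, skipping transcripts without an established name, and from genome neighbours some of the 6 nearest on each side. The alternatives were a floor of 100, quantile normalization, no mouse block, means per mouse, the compared groups alone, 1 probe set per gene, no filter, a trended and robust variance, the mean over probe sets of a gene, a spike-in covariate, and left-out arrays. Proteins were not used here.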

Additional observations from a re-analysis of the deposited data

Results flagged for a closer look

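In 39 combinations of a gene and a group of 4 to 10 samples, 6 held a sample farther from the others than Dixon's 95% criterion allows. For a single combination of independent samples chance flags about 1 in 20. The combinations share arrays and some samples share a mouse, so 6 of 39 cannot be judged against that rate. Among sorted primary tumors, that of mouse F405 was lowest in Csn1s1 (10.89 on the log2 scale, with the next at 12.36) and in Csn3 (12.36, with the next at 13.05), and tumor 1 of mouse G421 was lowest in Csn1s2a (10.47, with the next at 12.16). The hyperplasia sample of mouse H464 was highest in Lalba (12.06, with the next at 10.09). The wild-type gland of mouse G340 was highest in Glycam1 (10.26, with the next at 5.98) and in Csn1s2b (5.09, with the others at 5). The Csn1s2b value carries no weight, because the other 4 glands were set to the floor and any value above it would have stood out. Its intensity was 34.1, with the next at 29.9.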

How the results depend on the processing

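No paired analysis was possible because replicate numbers stand only on the 2 arrays of tumor CR115, and by tumor name each transplant comparison holds 1 tumor measured before and after (F433 tumor 4 sorted, CR115 unsorted). The 7 calls against glands became 6 to 8 over 16 alternatives. The 1 call against hyperplasia, Wap, became 0 with these groups alone and 0 without hyperplasia replicates 1 and 2, and ran from 0 to 1 when single replicates were left out. In sorted against unsorted primary tumors the count was 3 with means over probe sets and 2 without tumor L of B459. In unsorted transplants against primary tumors it was 2 without the mouse block and 1 with these groups alone. The causes were not tested.

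Signs turned only in differences that did not pass. Against hyperplasia, Csn1s2b was 0.11 with a floor of 100, 0.69 without hyperplasia replicates 1 and 2, and -0.80 to 0.25 with single replicates left out. Lalba was 0.19 without the block, 0.23 with means per mouse or these groups alone, and -0.31 to 0.47 with single replicates left out. Csn3 was 0.62 with means over probe sets. Between sorted and unsorted primary tumors Wap was -0.41 without tumor 4 of F433 and -0.04 without tumor L of B459. In unsorted transplants against primary tumors Glycam1 was 0.04 without the block and -1.18 to 0.26 with single replicates left out, and Csn2 was -0.03 without tumor L of B459. Between sorted and unsorted transplants, Csn1s2b was -0.17 with a floor of 100. Csn1s1 and Csn3 were 0.07 and 0.06 with quantile normalization (Csn2 0.00), 0.05 and 0.02 without the block, 0.05 and 0.03 with means per mouse and with these groups alone, and 0.06 and 0.08 with a spike-in covariate. With single replicates left out they ran from -0.13 to 0.06 and from -0.05 to 0.01. Csn3 was 0.10 there with means over probe sets.

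The share of all probe sets called against hyperplasia (3.03%) ran from 0.055% to 5.23%, that for unsorted transplants against primary tumors (1.13%) from 0.458% to 6.72%, that for the difference of transplant effects (0.131%) from 0.0545% to 1.48%, and that for sorted against unsorted transplants (17.6%) from 10.3% to 29.3%. For sorted transplants against primary tumors it was 0.00474% at most. Intensities below the floor have no order, which limits Csn1s2b and the dim probe sets. Brightness near the top limits the bright caseins, and Lalba and Glycam1 on their brightest arrays.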
